A study of Mus musculus with 4 samples.

Results

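The chemokines Cxcl9, Cxcl10 and Cxcl16 and the receptors Cxcr3 and Cxcr6 were followed across the cell types of mouse lungs bearing KP tumours. These 5 genes were chosen by name as 2 ligand and receptor groups, and all 5 were among the 31053 genes measured. KP cells are mouse lung cancer cells that lack P53 (P53-/-), and they were injected intravenously into B6 mice and formed tumours in the lung. The series holds 4 droplet single-cell RNA libraries, which stand for the combinations of tumour genotype and treatment. The cancer cells were either KP-WT or KP-Asf1a KO, in which the histone chaperone gene Asf1a is knocked out in the tumour cells, while the host mice are given no genotype other than B6. Treatment lasted 1 week and was either isotype IgG or an antibody to PD-1 of clone 29F.1A12, given in 3 doses of 200 µg to each mouse. The groups are named by genotype and treatment, and each series of 4 values gives the WT libraries before the KO libraries, with IgG before anti-PD-1 in each pair. Whole perfused lungs were digested with collagenase D and DNase I, and live cells were sorted by DAPI staining with no selection for a cell type, so that tumour, lung and blood cells were sampled together. No label gives the number or age of the mice behind a library, or whether the knockout line is 1 clone.

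Cxcl9 and Cxcl10 are small secreted chemokines that both bind Cxcr3, a receptor carried by activated and memory T cells, NK cells and plasmacytoid dendritic cells. Both are known as genes that interferon-gamma induces, in part through the factor Irf1, and Cxcl10 also answers to type I interferon and to NF-kB. Cxcl16 is made as a protein anchored in the membrane, from which the protease Adam10 can release it, and it binds Cxcr6, a receptor known from resident and effector T cells of the lung and other tissues.

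The stretch of 250 bases before the start of Cxcl9 and of Cxcl10 is shown because both of these neighbours on chromosome 5 were higher under anti-PD-1 in dendritic and tumour cells of the WT libraries. The sequences are those of RefSeq for build GRCm38.p6, at chr5:92328080-92328329 for Cxcl9 and chr5:92348890-92349139 for Cxcl10, both read on the minus strand. Capitals mark matches on either strand to 1 of 3 motifs: an interferon regulatory factor type (GAAA, any 2 bases, GAAA), a STAT type (TTC, any 3 bases, GAA) or an NF-kB type (GGGA, any 4 bases, CC).
Cxcl9: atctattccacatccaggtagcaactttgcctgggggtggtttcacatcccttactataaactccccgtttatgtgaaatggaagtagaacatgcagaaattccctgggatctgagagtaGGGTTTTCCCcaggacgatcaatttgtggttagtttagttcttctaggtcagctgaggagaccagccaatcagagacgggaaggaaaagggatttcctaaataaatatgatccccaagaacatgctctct
Cxcl10: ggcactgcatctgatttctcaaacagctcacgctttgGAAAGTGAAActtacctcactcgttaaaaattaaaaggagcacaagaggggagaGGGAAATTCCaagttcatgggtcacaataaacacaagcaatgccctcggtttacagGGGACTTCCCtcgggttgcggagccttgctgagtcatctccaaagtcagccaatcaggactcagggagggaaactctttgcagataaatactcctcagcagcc

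The Cxcl10 stretch held 1 match of the interferon regulatory factor type, 213 to 204 bases before the start, and 2 of the NF-kB type, at 159 to 150 and at 103 to 94 bases. The Cxcl9 stretch held 1 match of the NF-kB type on the other strand, 130 to 121 bases before the start. No 2 of these matches overlapped. The stretches of the same length before 32851 gene starts held the interferon regulatory factor type in 2.98%, the STAT type in 7.02% and the NF-kB type in 17.6%. Those before Cxcr3 and Cxcr6 held none of the 3 motifs, which says only that these letters do not occur there. The other genes lie on chromosome X (Cxcr3), 11 (Cxcl16) and 9 (Cxcr6) in the same build.

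The libraries held 16078095 to 22506737 UMIs (counted molecules), and 5604 to 6180 cells of each were kept after filtering, 23360 in all. Median depth per cell was 2025.5 and 1879.5 UMIs in the 2 WT libraries and 1221.5 and 1339 in the 2 KO libraries, and since shares of cells with a UMI depend on depth, levels are given as CPM, the UMIs of a gene per 1000000 UMIs of a class. Cells were sorted by marker genes into 14 classes with 45 sub-clusters. Clusters were found without the 5 genes or their pathway, but the marker lists that named them held the pathway genes Ccr2, Cx3cr1, Itgae and Eomes. Orders of classes below cover the 10 classes with at least 20 cells in every library. The targeted gene Asf1a stood at 37.1, 29.2, 9.12 and 6.95 CPM in tumour cells and between 16.5 and 18.8 CPM in all other cells, and the 3′ tags need not cover its deleted stretch. Each group is 1 library, so no difference below has a replicate check and none was tested. The 95% intervals, exact Poisson for levels and exact conditional for ratios, cover counting error only. A gene was counted as higher or lower where its CPM differed at least 2-fold and both libraries together held at least 10 UMIs.

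All of these genes but Cxcl10 had the same main source in all 4 libraries. Over the kept cells the 4 libraries held 3557 UMIs of Cxcl9 in 609 cells, 4536 of Cxcl10 in 912 cells, 11901 of Cxcl16 in 3136 cells, 1600 of Cxcr3 in 1266 cells and 3461 of Cxcr6 in 1874 cells. Monocytes and macrophages held most of the Cxcl9, at 68.8, 70.8, 81.1 and 67.3% of its UMIs, although they were at most 19.0% of the cells. T cells held 89.8, 91.7, 79.9 and 77.4% of the Cxcr6 UMIs. The ligands were thus read mainly in myeloid cells and the receptors in lymphocytes, while Cxcl10 had neutrophils as its largest holder in WT IgG and monocytes and macrophages in the other 3 libraries.

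**Figure D1:**
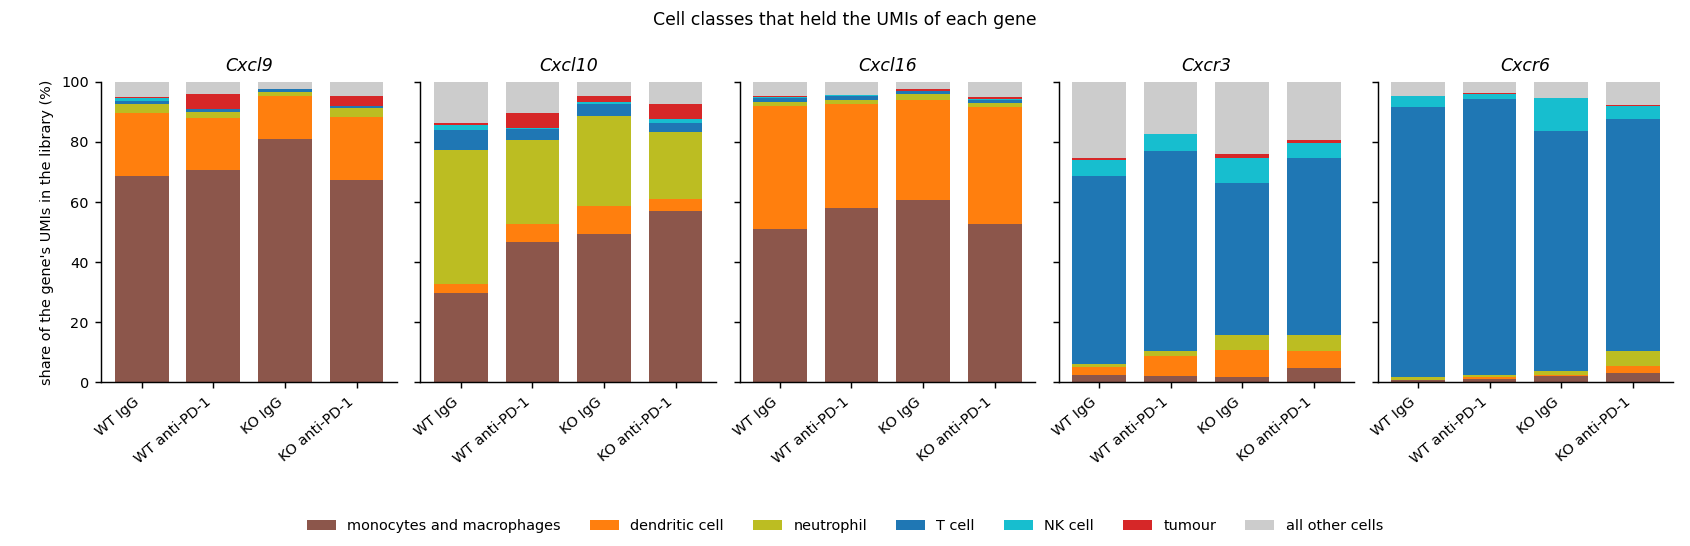
Share of each gene's UMIs (percent, vertical axis) that each cell class held in each library (bars). Monocytes and macrophages and dendritic cells together held most Cxcl9 and Cxcl16 UMIs in every library, T cells most Cxcr6, and neutrophils went from 44.4% of Cxcl10 in WT IgG to 22.3% in KO anti-PD-1.

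Cxcl9 was highest in monocytes and macrophages and second highest in dendritic cells in every library. In monocytes and macrophages it stood at 78.2 CPM (70.9 to 85.9), 227 (216 to 239), 46.8 (40.9 to 53.3) and 81.8 (74.0 to 90.2), from 430, 1450, 227 and 406 UMIs. WT anti-PD-1 was the highest library and KO IgG the lowest, and the intervals of WT IgG and KO anti-PD-1 overlapped. The ratio of WT anti-PD-1 to WT IgG was 2.91 (2.61 to 3.25) and that of KO anti-PD-1 to KO IgG was 1.75 (1.48 to 2.07). KO IgG against WT IgG gave 0.599 (0.507 to 0.705), and KO anti-PD-1 against WT anti-PD-1 gave 0.360 (0.322 to 0.402). With cells clustered more finely (Leiden resolution 2) the KO IgG to WT IgG ratio became 0.393 and the KO anti-PD-1 to KO IgG ratio 2.71, both past 2-fold.

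A Cxcl9 UMI was found in 9.77, 14.97, 4.0 and 8.0% of monocytes and macrophages, and in 2.27, 5.2, 1.14 and 2.54% when every cell was thinned to 500 UMIs. On both counts WT anti-PD-1 was highest and KO IgG lowest. In B cells, which are not known as a Cxcl9 source and serve as a reading of free RNA, the share was 0.498, 0.552, 0.413 and 0.658% at median depths of 1613.5, 1499, 1043 and 1346 UMIs, against 6637.5, 5580.5, 4596 and 4061 in monocytes and macrophages. Neutrophils had few Cxcl9 UMIs (18, 42, 4 and 19, or 7.56, 21.2, 1.59 and 10.8 CPM), beside summed macrophage markers of 774, 816, 858 and 1044 CPM whose part in them was not tested.

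Dendritic cells showed the same order of libraries for Cxcl9. Their levels were 52.3, 144, 21.1 and 63.9 CPM, from 130, 355, 40 and 126 UMIs. The ratios were 2.75 (2.24 to 3.39) for anti-PD-1 in WT, 3.03 (2.11 to 4.43) for anti-PD-1 in KO, 0.403 (0.276 to 0.579) for KO over WT under IgG and 0.443 (0.359 to 0.545) under anti-PD-1. The WT value under anti-PD-1 depended on which cells entered the class: it was 1.81 with the 5 genes and their pathway kept for clustering, 1.84 with a stricter mitochondrial limit and 1.86 without doublet removal. At resolution 2 the KO over WT ratios became 0.582 and 0.559, short of 2-fold. Summed T cell markers in dendritic cells were 89.4, 105, 52.2 and 163 CPM and summed macrophage markers 397, 329, 579 and 394 CPM, and their part in the ratios was not tested.

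Among the macrophages, Cxcl9 was concentrated in sub-cluster 6, which got no cell type name and whose leading genes were Ly6i, Il1rn, Aif1 and the guanylate-binding protein gene Gbp2. Its 98, 131, 143 and 131 cells held 41.2, 37.0, 70.5 and 58.4% of the Cxcl9 of the class. Its levels were 253, 617, 212 and 378 CPM, and 28.6, 43.5, 13.3 and 33.6% of its cells had a UMI. Within it the KO IgG and WT IgG libraries were close, at a ratio of 0.84 (0.68 to 1.05), while anti-PD-1 against IgG gave 2.44 (2.06 to 2.91) in WT and 1.78 (1.45 to 2.19) in KO.

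Other macrophage sub-clusters varied more between libraries than sub-cluster 6. The cycling sub-cluster 13 held levels near those of sub-cluster 6 in the WT libraries, at 234, 681, 139 and 158 CPM. Macrophages led by Gpnmb and Trem2 (sub-cluster 0) stood at 15.2, 193, 15.5 and 32.7 CPM of Cxcl9, a ratio of 12.7 (8.67 to 19.2) for anti-PD-1 in WT and 2.11 (1.31 to 3.42) in KO. WT anti-PD-1 thus stood apart from the other 3 libraries in these cells, with 375 UMIs against 29, 32 and 46. Macrophages led by Arg1 (sub-cluster 3), the arginase gene, stood at 101, 255, 12.2 and 144 CPM. Here KO IgG was the low library, with 6 UMIs against 96, 174 and 66, of which 83.3% came from 1 cell, and its ratio to WT IgG was 0.12 (0.04 to 0.27).

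Among dendritic cells, the cDC1-like cells (26 to 44 per library), which present antigen to CD8 T cells, held Cxcl9 at 64.1, 258, 42.4 and 142 CPM. Ratios of anti-PD-1 to IgG were 4.02 in WT and 3.35 in KO. In the larger cDC2-like sub-cluster 4, the levels were 79.2, 182, 9.10 and 83.4 CPM, and KO IgG was the low library with a ratio of 0.11 to WT IgG. The migratory dendritic cells stood at 29.6, 62.4, 27.0 and 9.87 CPM.

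**Figure D2:**
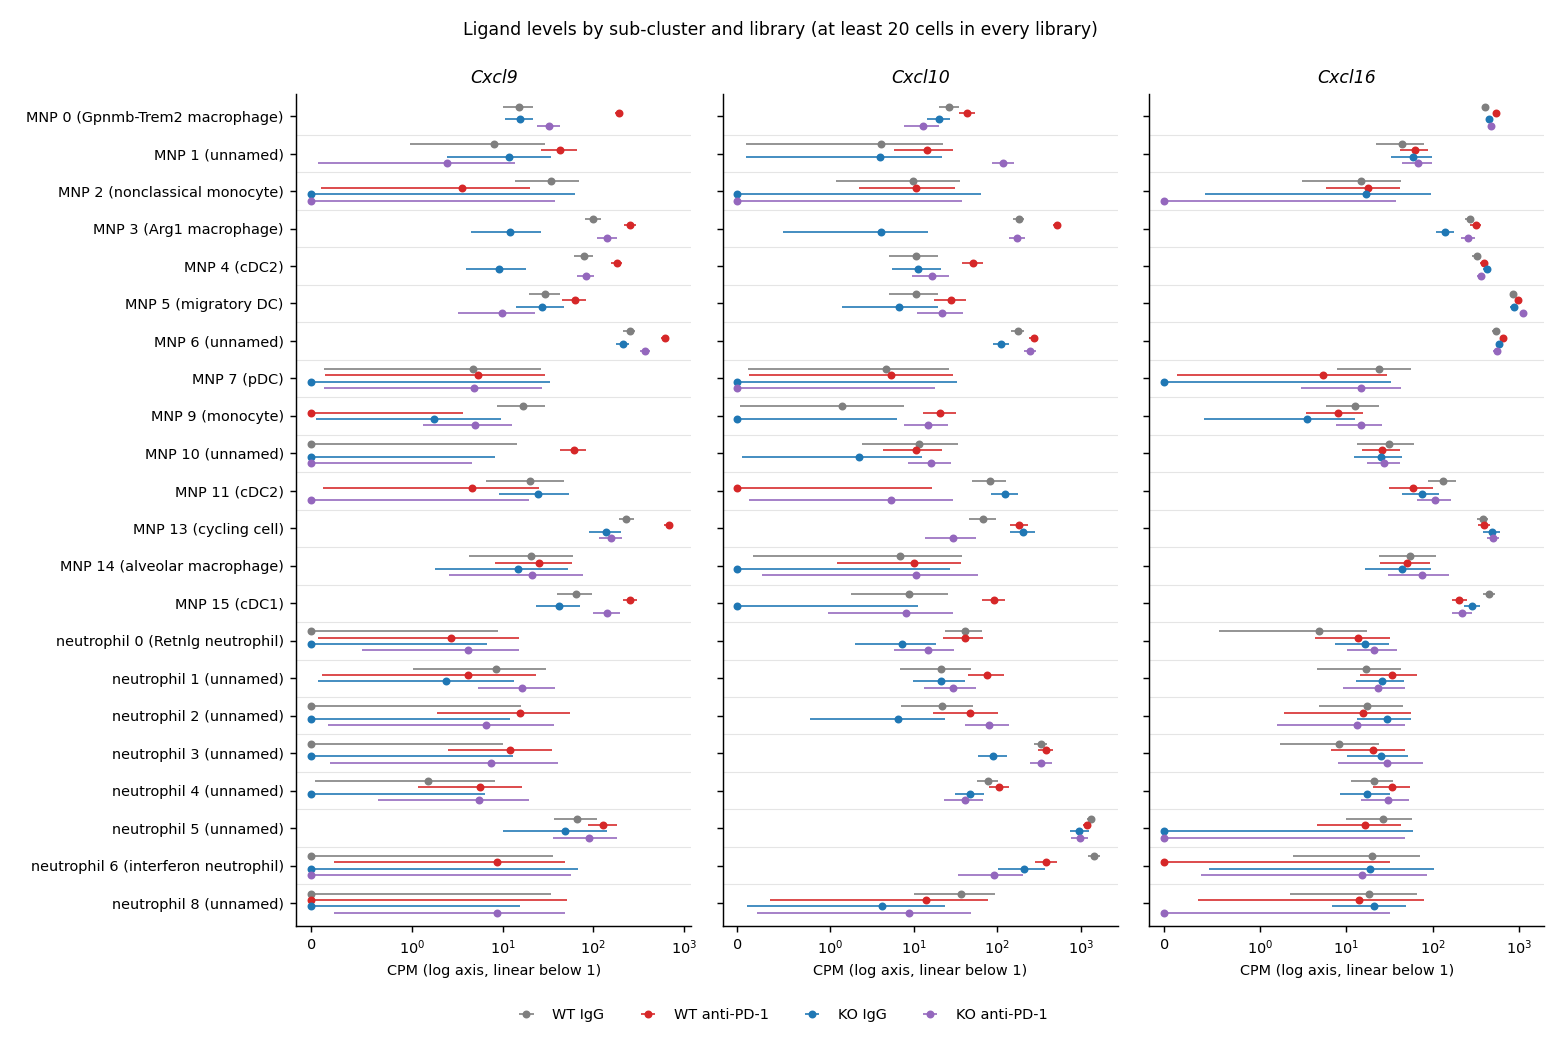
Levels (CPM, log scale) of Cxcl9, Cxcl10 and Cxcl16 in each sub-cluster of neutrophils and of mononuclear phagocytes (MNP) that held at least 20 cells in every library, with 1 point per library and exact 95% Poisson intervals. Cxcl9 in MNP 0 was 193 CPM in WT anti-PD-1 and 15.2 to 32.7 CPM in the other libraries, whereas Cxcl16 in the migratory dendritic cells stayed between 851 and 1106 CPM.

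Tumour cells held Cxcl9 almost only under anti-PD-1, and few cells carried it. They had 2, 98, 0 and 21 UMIs, which is 1.14, 62.1, 0 and 12.2 CPM, from 90, 87, 195 and 106 cells. The ratio of WT anti-PD-1 to WT IgG was 54.4 (14.7 to 455) and rested on 2 UMIs, while KO anti-PD-1 was at least 11.1-fold higher than KO IgG, taking 3 UMIs as the limit that a count of 0 allows. Tumour sub-cluster 0 had 91 of the 98 UMIs and 10 of the 21, in 15 and 16 cells, and was 1 cell in KO IgG. The interferon gene list scored highest in it and gave it its name. Its 10 leading genes, though, began with Tm4sf4, Phgr1, Lgals4 and Apoa1, and held only Ifit3 of that list. A single cell held 66.3% of the 98 UMIs and a single cell 47.6% of the 21. KO anti-PD-1 over WT anti-PD-1 was 0.196 (0.116 to 0.316), was 0.305 (0.139 to 0.618) without the top cell of each library, and was 0.796 (0.450 to 1.39) at resolution 2. Summed macrophage markers in tumour cells were 223, 221, 255 and 214 CPM, and their part in these levels was not tested.

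Among the 10 classes, Cxcl10 had neutrophils as its highest in every library, and there the KO libraries were the low ones under both treatments. Neutrophils stood at 270.4 CPM (249.9 to 292), 261 (239 to 285), 54.9 (46.1 to 64.8) and 97.2 (83.2 to 113), from 644, 517, 138 and 171 UMIs. KO IgG was 0.203 of WT IgG (0.168 to 0.244) and KO anti-PD-1 was 0.372 of WT anti-PD-1 (0.311 to 0.443). Anti-PD-1 over IgG gave 0.967 (0.859 to 1.09) in WT and 1.77 (1.41 to 2.23) in KO. The share of neutrophils with a Cxcl10 UMI was 6.29, 6.35, 2.25 and 3.54%, and 4.14, 4.52, 1.75 and 3.0% after thinning, against 2.74, 0.921, 1.24 and 1.97% of B cells unthinned, so the KO shares were nearer to that background than the WT shares. Among neutrophils with at least 1000 UMIs the KO anti-PD-1 to KO IgG ratio was 0.875 and the KO anti-PD-1 to WT anti-PD-1 ratio 0.168, so that the anti-PD-1 difference in KO was not held by the deeper cells.

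A small set of neutrophils carried much of this Cxcl10. Sub-cluster 5, led by the interferon-induced GTPase genes Gbp2, Gbp5, Ifi47 and Igtp, was 10.0, 13.2, 2.63 and 4.89% of the neutrophils and held 46.0, 54.7, 42.8 and 44.4% of their Cxcl10. Its own levels were much nearer to each other, at 1315, 1170.5, 954 and 972 CPM, with a KO IgG to WT IgG ratio of 0.73 (0.54 to 0.96). Sub-cluster 6, which carried the interferon response genes, stood at 1415, 382, 205 and 91.7 CPM, so that WT IgG was its high library. With the sub-clusters given equal shares of the class in both libraries, the neutrophil ratios became 0.456 for KO over WT under IgG and 0.701 under anti-PD-1, which no longer reached 2-fold. The genes that define these sub-clusters include other interferon-induced genes, so the shares of cells are themselves a reading of such genes.

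In monocytes and macrophages Cxcl10 had the same order of libraries as Cxcl9, with no ratio past 2-fold. The levels were 78.7, 136, 46.6 and 88.0 CPM, from 433, 866, 226 and 437 UMIs. Anti-PD-1 over IgG gave 1.73 (1.54 to 1.94) in WT and 1.89 (1.61 to 2.23) in KO, and KO over WT gave 0.592 (0.502 to 0.697) under IgG and 0.648 (0.577 to 0.728) under anti-PD-1. At resolution 2, however, the first KO over WT ratio was 0.334, the KO anti-PD-1 to KO IgG ratio 2.59 and the last ratio 0.498. The class held 29.8, 46.6, 49.2 and 57.0% of all Cxcl10 UMIs.

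The Arg1 macrophages spanned the widest range of Cxcl10, in CPM, among the macrophage sub-clusters with at least 20 cells in every library. They stood at 180.4, 519, 4.05 and 172 CPM, from 172, 355, 2 and 79 UMIs in 92 to 124 cells. KO IgG was again the low library, at 0.0225 of WT IgG (0.00270 to 0.0824). Anti-PD-1 over IgG gave 2.88 (2.39 to 3.47) in WT, and in KO it gave 42.5 (11.4 to 357), which rests on the 2 UMIs of KO IgG. In sub-cluster 6, the main Cxcl9 source, Cxcl10 stood at 174, 272, 112 and 246 CPM, a range of less than 3-fold.

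**Figure D3:**
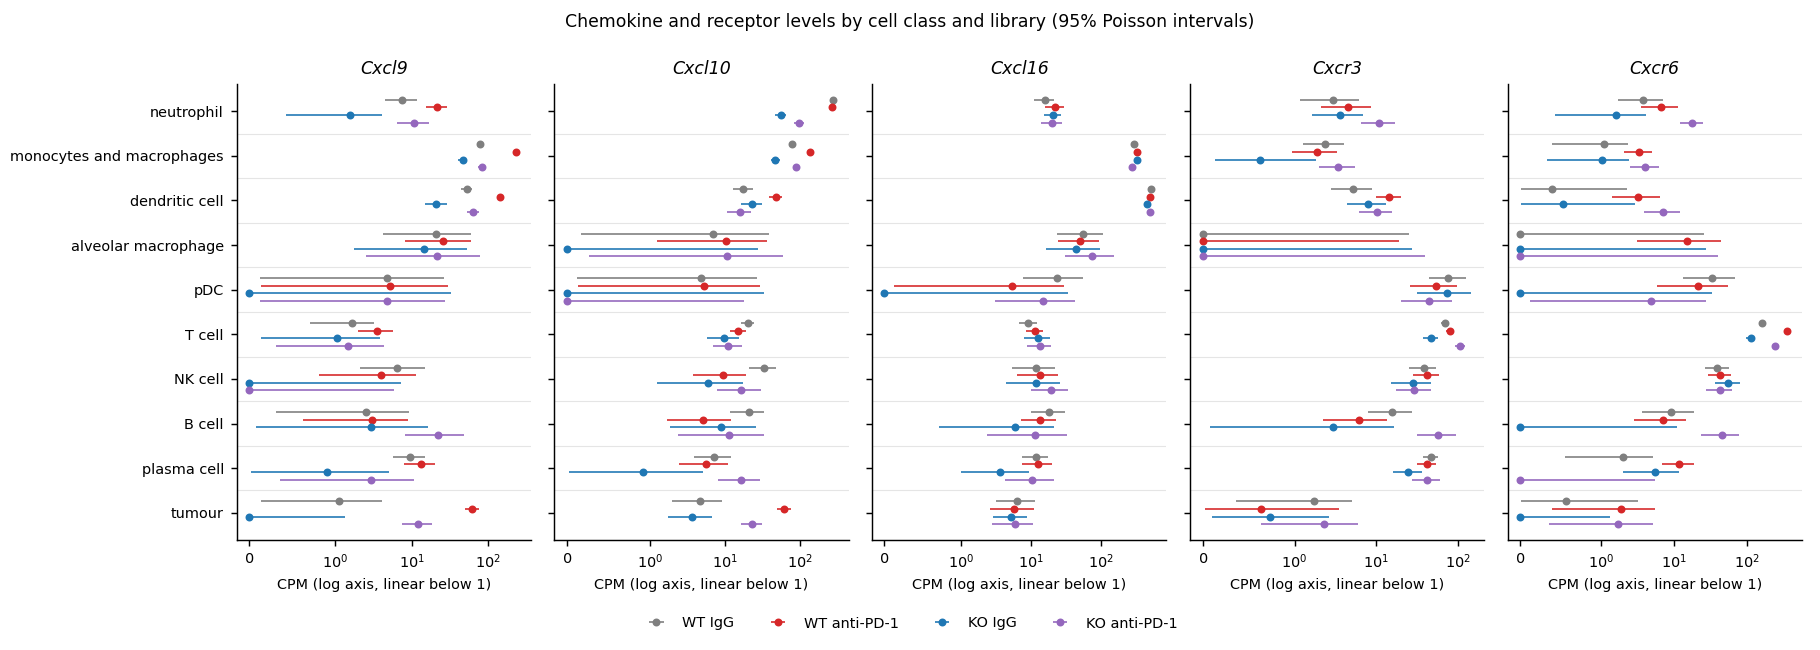
Levels (CPM, log scale) of the 5 genes in the larger cell classes, with 1 point per library and exact 95% Poisson intervals that cover counting error only. In neutrophils Cxcl10 stood at 270.4 and 261 CPM in the WT libraries and at 54.9 and 97.2 CPM in the KO libraries.

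Tumour cells held 8, 96, 10 and 39 UMIs of Cxcl10, or 4.57, 60.9, 3.65 and 22.6 CPM. Both anti-PD-1 libraries were above both IgG libraries, with ratios of 13.3 (6.49 to 31.7) in WT and 6.19 (3.04 to 13.9) in KO. The tumour cells were not spread alike over sub-clusters. Sub-cluster 0, named by the interferon gene list as above, had 18, 15, 1 and 16 of them and 1, 34, 0 and 30 of the Cxcl10 UMIs. Its cell numbers were thus close in the WT pair and far apart in the KO pair. Sub-cluster 1, left unnamed, had 7, 13, 48 and 18 of the tumour cells and 1, 43, 0 and 1 of the UMIs. It was the largest holder in WT anti-PD-1. Single cells weighed on these values: the cell with most UMIs held 28.1% of the 96 and 53.8% of the 39, and with every cell counted equally the WT ratio was 2.79. KO anti-PD-1 over WT anti-PD-1 was 0.371 (0.249 to 0.544), and 0.772 with every cell counted equally. Dendritic cells stood at 17.3, 47.1, 22.7 and 15.7 CPM of Cxcl10, so WT anti-PD-1 was their single high library, at 2.72 (1.90 to 3.95) times WT IgG.

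Cxcl16 differed little between libraries and had a clear order of classes. Dendritic cells stood at 522, 502, 454 and 507 CPM. Monocytes and macrophages followed at 293, 326, 322 and 275 CPM, and alveolar macrophages, with 22 to 43 cells, at 54.9, 50.7, 44.1 and 74.6 CPM. The ranges of these 3 classes over the libraries did not overlap with each other, and neutrophils, next by the mean over libraries, stood at 15.5 to 21.7 CPM. A Cxcl16 UMI was found in 70.8 to 79.3% of dendritic cells and 37.1 to 51.6% of monocytes and macrophages, against 0.658 to 3.48% of B cells. In tumour cells the gene stood at only 5.11 to 6.28 CPM. Over both ligand systems, Cxcl16 and Cxcl9 thus shared their 2 leading classes, in the opposite order.

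The 4 Cxcl16 ratios lay between 0.871 and 1.12 in dendritic cells and between 0.844 and 1.11 in monocytes and macrophages. In the latter, anti-PD-1 over IgG was 1.11 (1.04 to 1.19) in WT and 0.853 (0.793 to 0.918) in KO, on opposite sides of 1. This did not hold under other settings: equal sub-cluster shares gave 1.26 and 1.06, and thinning to 500 UMIs gave 0.99 in WT. In dendritic cells KO over WT under IgG was 0.871 (0.798 to 0.95) and the other intervals reached from 0.889 to 1.22.

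Within these classes Cxcl16 followed the kind of cell. The migratory dendritic cells, the mature form that moves to lymph nodes, were highest, at 851, 968, 856 and 1106 CPM. Sub-cluster 6 stood at 531 to 648 CPM and the Gpnmb and Trem2 macrophages at 398 to 541 CPM, while the monocyte sub-cluster 9 stood at 3.46 to 14.7 CPM. The Arg1 macrophages were at 267, 312, 139.8 and 257 CPM, so that KO IgG was low here too, at 0.52 of WT IgG (0.39 to 0.68). cDC1-like cells were the exception to the even levels, at 449, 203, 285 and 219 CPM, with WT anti-PD-1 at 0.45 of WT IgG (0.35 to 0.59).

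Cells that carried more than 1 of the ligands were counted in each library. Among monocytes and macrophages with a Cxcl9 UMI, 21.7, 25.7, 20 and 22.4% also had a Cxcl10 UMI, against 5.97, 6.36, 1.67 and 3.38% of those without. A Cxcl16 UMI was found in 82.6, 81.9, 77.1 and 82.4% of the Cxcl9 cells, against 48.2, 35.3, 44.5 and 33.2% of the others. In dendritic cells the Cxcl9 cells had Cxcl16 in 80.0 to 81.5% and the others in 70.5 to 79.1%, a much smaller gap. Cells with more UMIs show every gene more often, and that part of the gaps was not tested.

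Cxcr3 was highest in T cells when the libraries are averaged with equal weight, and plasmacytoid dendritic cells, plasma cells and NK cells came next with overlapping ranges. T cells stood at 68.5 CPM (61.3 to 76.3), 79.4 (71.4 to 88.0), 46.3 (37.1 to 57.2) and 105 (91.5 to 120), from 331, 360, 86 and 212 UMIs. KO IgG was the lowest library and KO anti-PD-1 the highest. Anti-PD-1 over IgG gave 1.16 (0.995 to 1.35) in WT and 2.27 (1.76 to 2.95) in KO, and KO over WT gave 0.676 (0.527 to 0.86) under IgG and 1.32 (1.11 to 1.57) under anti-PD-1. With equal shares of the T cell sub-clusters in both libraries the anti-PD-1 ratios were 1.63 in KO, short of 2-fold, and 0.916 in WT, on the other side of 1. With cells thinned to 500 UMIs the KO value was 3.53. A Cxcr3 UMI was found in 15.1, 15.7, 7.52 and 15.9% of T cells, against 0.34, 0.55, 0.34 and 0.92% of neutrophils, whose median depth was 763 to 1250 UMIs against 1617 to 2455.5 in T cells.

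Among the T cells, Cxcr3 was spread over several activated kinds. Regulatory T-like cells stood at 139, 212, 180 and 237 CPM, and the CD4 T-like sub-cluster 4 at 174, 95.3, 101 and 204 CPM. The CD8 T-like sub-cluster 6 was at 125, 104, 89.6 and 119 CPM, a narrower range, with ratios of 0.83 for anti-PD-1 in WT and 1.32 in KO. In the naive T-like cells the highest of the 4 levels was 32.3 CPM, from 1 UMI. These naive cells were 24.4, 12.4, 23.3 and 2.39% of the T cells, so KO anti-PD-1 had the smallest share of them.

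Outside T cells, plasmacytoid dendritic cells, the main source of type I interferon, held Cxcr3 at 75.7, 52.9, 71.9 and 43.8 CPM in 32 to 66 cells. Plasma cells stood at 46.2, 41.4, 24.5 and 41.4 CPM, and held 17.2, 11.1, 15.9 and 7.80% of all Cxcr3 UMIs. Their summed T cell markers were 96.0, 162, 86.2 and 97.5 CPM, against 5079 to 6242 CPM in T cells. NK cells stood at 37.7, 40.9, 27.6 and 29.1 CPM. B cells had 12, 6, 1 and 15 UMIs, and their 56.1 CPM in KO anti-PD-1 came with the highest sum of T cell markers in B cells, 755 CPM against 215 to 311 in the other libraries, whose part in it was not tested.

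Cxcr6 was highest in T cells in every library, and its range there did not overlap with that of any other class. T cells stood at 158 CPM (147 to 169.96), 349 (332 to 367), 112 (96.8 to 128) and 239 (218 to 261), from 765, 1584, 207 and 482 UMIs. Both anti-PD-1 libraries were above both IgG libraries. Anti-PD-1 over IgG gave 2.21 (2.02 to 2.41) in WT and 2.14 (1.82 to 2.53) in KO, and KO over WT gave 0.704 (0.601 to 0.822) under IgG and 0.685 (0.617 to 0.759) under anti-PD-1. A UMI was found in 22.9, 38.9, 14.1 and 27.7% of T cells, and in 7.68, 17.3, 5.12 and 11.4% after thinning, against 0.51, 0.79, 0.15 and 1.26% of neutrophils unthinned. NK cells followed at 39.0 to 55.2 CPM, with no order that matched the T cells.

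The T cell sub-clusters differed in Cxcr6 more than the libraries did. CD8 T-like cells of sub-cluster 6 stood at 531, 713, 448 and 484 CPM and held 41.0, 62.0, 31.4 and 44.8% of the T cell Cxcr6. They were 14, 32.7, 8.73 and 23.7% of the T cells, larger shares in both anti-PD-1 libraries. Within them anti-PD-1 over IgG gave 1.34 (1.18 to 1.53) in WT and 1.08 (0.81 to 1.45) in KO, and KO over WT under anti-PD-1 gave 0.68 (0.58 to 0.79). With equal shares of the sub-clusters in both libraries, the T cell ratios for anti-PD-1 became 1.37 in WT and 1.20 in KO, and neither reached 2-fold. The ratios of the class were thus nearer to 1 once the make-up of the T cells was held the same.

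Of the other T cells, the CD4 T-like sub-cluster 5 stood at 380.0, 535, 303 and 400.5 CPM and regulatory T-like cells at 74.2, 78.4, 56.4 and 129 CPM. Sub-cluster 7, led by Atp2b4 and Malat1, had low depth (595 to 645 UMIs at the median) and got no name. The CD8 T cell marker list scored highest in it, but without a clear lead over the next list. Against cells outside the T cells, Cd8a and Cd8b1 were among its leading genes. It stood at 814, 1508, 523 and 813 CPM of Cxcr6, the highest T cell sub-cluster in every library but KO IgG. Sub-cluster 12, led by Calca, Tcrg-C1 and Il1rl1, stood at 387 to 542 CPM. It got no name either. The list of type 2 innate lymphoid cells scored highest in it (2.66), closely followed by the gamma-delta T cell list (2.38). Without these 2 sub-clusters the T cell ratios for anti-PD-1 were 2.25 in WT and 2.33 in KO, so the differences of the class were as large without them. The naive T-like cells had 1 to 7 Cxcr6 UMIs in each library.

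**Figure D4:**
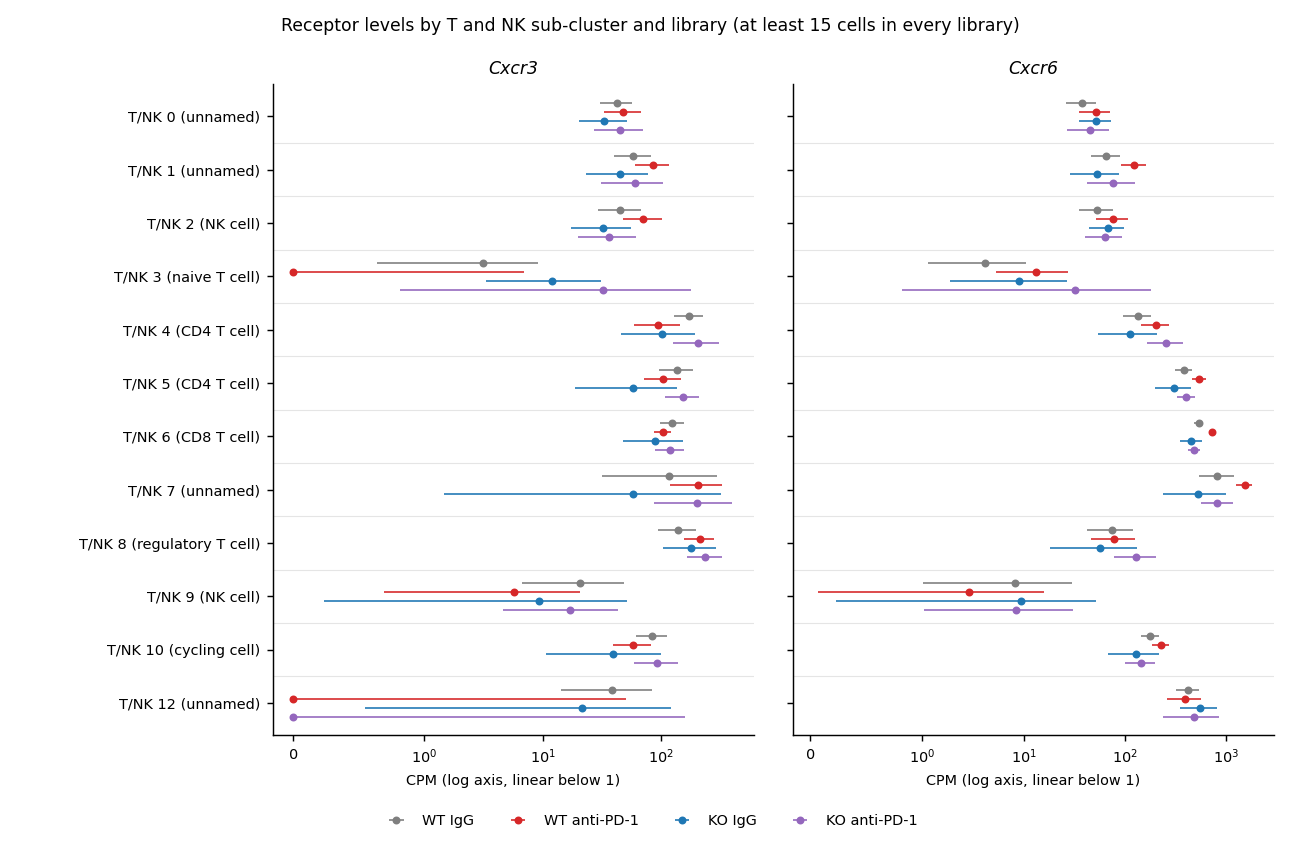
Levels (CPM, log scale) of Cxcr3 and Cxcr6 in the T and NK sub-clusters with at least 15 cells in every library, with 1 point per library and exact 95% Poisson intervals. CD8 T-like cells of sub-cluster 6 stood at 448 to 713 CPM of Cxcr6 and 89.6 to 125 CPM of Cxcr3, while regulatory T-like cells were at 56.4 to 129 CPM of Cxcr6 and 139 to 237 CPM of Cxcr3.

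Both receptors were found in 87, 122, 13 and 43 T cells, or 5.14, 6.31, 1.30 and 4.12% of them. The product of the separate shares was 3.46, 6.09, 1.06 and 4.40%. Only in WT IgG was the observed share well above the product, and the number of cells with both is small in KO IgG.

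In neutrophils and in monocytes and macrophages the receptors were low, and T cell markers were read there as well. Neutrophils had 3.8, 6.6, 1.6 and 17.6 CPM of Cxcr6 and 2.9, 4.6, 3.6 and 10.8 CPM of Cxcr3, and their summed T cell markers were 211, 258, 129 and 388 CPM. The marker sum and Cxcr6 had the same order of libraries, and all 3 were highest in KO anti-PD-1. Monocytes and macrophages had at most 4.0 CPM of either receptor, with T cell marker sums of 50.7 to 121 CPM. The part of these T cell transcripts in the receptor values was not tested. In dendritic cells most Cxcr3 UMIs were in the cDC1-like cells in every library but KO anti-PD-1. They held 9 of 13, 31 of 35, 15 of 15 and 9 of 20 UMIs, and were 8.97, 13.3, 13.5 and 8.20% of the class.

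The first comparison, KO IgG with WT IgG, asks what knockout of Asf1a in the tumour goes with under isotype IgG. In neutrophils 3 of the 5 genes were lower by at least 2-fold (Cxcl9, Cxcl10 and Cxcr6) and none higher, where 4.29% of all genes tested were lower and 3.27% higher. Cxcl9 had 4 UMIs there against 18 and Cxcr6 stood at 1.6 against 3.8 CPM, so only Cxcl10 of the 3 rests on many UMIs. With 10 CPM added to each level, which pulls the ratios of low genes towards 1, the median log2 ratio of the 5 genes was -0.25 in neutrophils, beside -0.05 over all genes tested. In T cells 1 of 5 was lower (Cxcl10), where 3.35% of all genes were lower and 3.18% higher. Among monocytes and macrophages 1 of 5 was lower (Cxcr3, from 3 UMIs), beside 2.96% of all genes lower and 2.45% higher. Dendritic cells had 1 of 4 lower (Cxcl9), beside 3.5% lower and 3.92% higher. NK cells had 1 of 4 lower (Cxcl10, from 3 UMIs), beside 4.57% lower and 4.97% higher. Neither of the 2 genes tested in tumour cells differed 2-fold, where 8.09% of all genes were higher and 7.35% lower.

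The second comparison, WT anti-PD-1 with WT IgG, shares the WT IgG library with the first, so the 2 sets of ratios are not independent. Cxcl9 was past 2-fold in all of the myeloid and tumour classes given here, and Cxcl16 in none. In dendritic cells 3 of 4 were higher (Cxcl9, Cxcl10 and Cxcr3), where 3.78% of all genes tested were higher and 2.58% lower, and with 10 CPM added to each level the median log2 ratio of the 4 was 0.87 beside 0.04 over all genes. Tumour cells had 2 of 3 higher (Cxcl9 and Cxcl10), beside 3.54% of all genes higher and 4.51% lower. Neutrophils had 1 of 5 higher (Cxcl9), beside 2.8% higher and 3.17% lower. Among monocytes and macrophages 2 of 5 were higher (Cxcl9 and, at 3.3 CPM, Cxcr6), beside 2.39% higher and 2.7% lower. T cells had 2 of 5 higher (Cxcr6, and Cxcl9 at 16 UMIs against 8), beside 2.62% higher and 2.07% lower. NK cells had 1 lower (Cxcl10, 7 UMIs against 25), beside 4.08% higher and 3.62% lower.

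For the third comparison, KO anti-PD-1 with KO IgG, both receptors were higher in T cells, 2 of 4 genes tested, where 5.1% of all genes were higher and 4.1% lower. Dendritic cells had 2 of 5 higher (Cxcl9, and Cxcr6 at 14 UMIs against 1), beside 3.32% higher and 4.88% lower. Tumour cells had 2 of 3 higher (Cxcl9 and Cxcl10), beside 5.08% higher and 7.54% lower. NK cells had 1 higher (Cxcl10, 10 UMIs against 3), beside 4.48% higher and 7.4% lower. Neutrophils had 3 of 5 higher (Cxcl9, Cxcr3 and Cxcr6), beside 6.13% higher and 3.37% lower, and monocytes and macrophages 2 of 5 (Cxcr3 and Cxcr6), beside 3.56% higher and 4.01% lower. In both of these classes the receptors were at the low levels given above, and the neutrophil Cxcl9 ratio, 6.79 (2.26 to 27.5), rests on 4 UMIs in KO IgG.

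The last comparison, KO anti-PD-1 with WT anti-PD-1, asks how the knockout goes with the levels when both libraries had the antibody, and it shares a library with each of the 2 before it. Cxcl9, Cxcl10 or both were lower in KO in 5 classes, while Cxcl16 was not past 2-fold in any class given here. Cxcl9 was lower in monocytes and macrophages (1 of 5 genes, beside 3.25% of all genes higher and 3.46% lower) and, at few UMIs, in T cells (1 of 5, beside 3.65% higher and 4.06% lower). Cxcl9 and Cxcl10 were lower in tumour cells (2 of 3, beside 7.2% higher and 8.02% lower). In dendritic cells the same 2 ligands were lower and Cxcr6 higher (of 5 genes, beside 3.49% higher and 5.13% lower). Neutrophils had lower Cxcl10 and higher Cxcr3 and Cxcr6 (of 5, beside 4.7% higher and 4.96% lower), and the receptors were at low levels in both of these classes. In NK cells no gene of the 5 differed 2-fold, where 4.57% of all genes were higher and 6.45% lower.

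**Figure D5:**
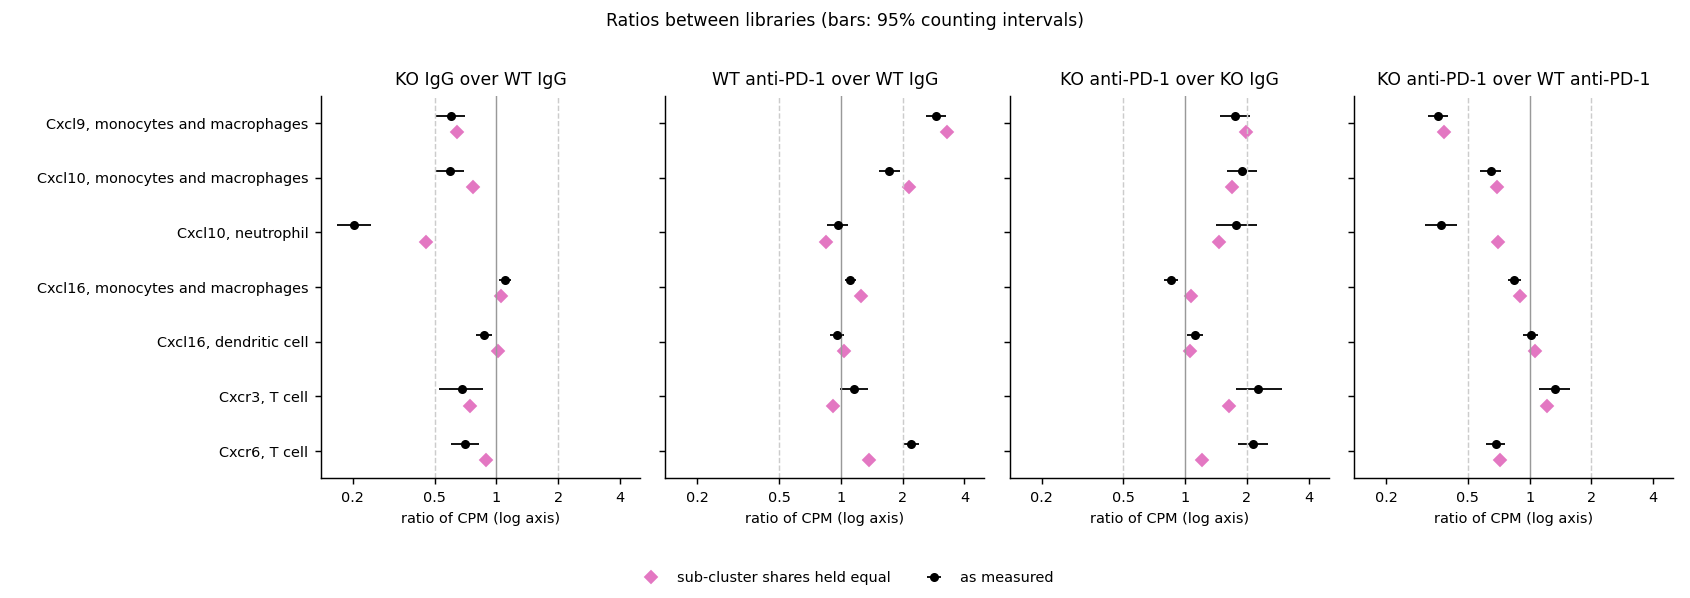
Ratios (log scale) of the 4 comparisons for the 5 genes in their main classes, as measured with exact 95% intervals and with the sub-clusters given equal shares in both libraries. The Cxcr6 ratios for anti-PD-1 in T cells were 2.21 and 2.14 as measured and 1.37 and 1.20 at equal shares.

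The genes that act above the ligands were read from a list of 27 related genes, of which 26 were measured and Cxcl11, the third ligand of Cxcr3, was not analysed here. Ifng, the gene of interferon-gamma, was read in T cells (815 UMIs) and NK cells (231), with 20 UMIs each in neutrophils and in monocytes and macrophages. In T cells it stood at 56.7, 78.0, 12.9 and 80.8 CPM, from 274, 354, 24 and 163 UMIs. KO IgG was the low library, at 0.23 of WT IgG (0.14 to 0.35), and KO anti-PD-1 was 6.25 times KO IgG (4.06 to 10.0). In NK cells Ifng stood at 89.7, 91.1, 67.1 and 95.5 CPM, also lowest in KO IgG but within a range of less than 2-fold.

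Irf1, a factor that carries the interferon-gamma signal to target genes, was lowest in KO IgG in each of the 4 classes given here. It stood at 29.4, 45.0, 18.3 and 34.2 CPM in monocytes and macrophages and at 128, 199, 88.7 and 166 CPM in neutrophils. In dendritic cells it stood at 66.4, 63.3, 33.8 and 51.7 CPM, and in tumour cells at 33.1, 41.2, 17.1 and 28.4 CPM.

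Tbx21, whose product T-bet is a known activator of Cxcr3, stood at 21.5, 27.6, 19.4 and 39.7 CPM in T cells, and was 2.05 times higher in KO anti-PD-1 than in KO IgG (1.36 to 3.12). Pdcd1, the gene of PD-1 itself, stood at 64.4, 126, 53.9 and 129 CPM there, with ratios for anti-PD-1 of 1.95 in WT and 2.39 (1.89 to 3.05) in KO. Both of these genes and both receptors were higher in the anti-PD-1 library of each pair in T cells, though in WT only the Cxcr6 ratio reached 2-fold and Cxcr3 was below 1 at equal shares of the sub-clusters. Ifngr2, a subunit of the interferon-gamma receptor, stood at 36.4, 26.9, 37.2 and 8.9 CPM, so that KO anti-PD-1 was the low library, at 0.24 of KO IgG (0.13 to 0.41).

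The counts over the list stand beside the shares of all genes past 2-fold in the same class. Over the 4 comparisons and both directions these shares were 2.07 to 5.1% in T cells and 2.39 to 4.01% in monocytes and macrophages. By counts over the list, T cells had 0 of 25 genes higher and 1 lower (Ifng) in KO IgG over WT IgG. They had 2 higher and none lower for anti-PD-1 in WT: Irf7, an interferon-induced factor, at 25.4 against 11.8 CPM, and Cx3cr1 at 28.9 against 13.5 CPM, each a ratio of 2.15. In KO, anti-PD-1 gave higher Ifng, Tbx21 and Pdcd1 and 1 lower gene (Ifngr2), and KO over WT under anti-PD-1 gave 0 higher and 1 lower (Ifngr2). In monocytes and macrophages the counts were 2 higher and 0 lower of 25 in the second comparison (Ifng, 9 UMIs against 3, and the integrin gene Itga1, 14.4 CPM against 6.0), 1 and 0 of 23 in the third (Pdcd1, 21 UMIs against 5), and 1 and 2 of 24 in the last (Pdcd1 at 21 UMIs against 9, and lower Itga1, 3.83 CPM against 14.4, and Cx3cr1). Cx3cr1, a fractalkine receptor gene of monocytes, stood at 89.1, 76.7, 64.7 and 34.9 CPM in that class.

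The same shares of all genes were 2.58 to 5.13% in dendritic cells, 3.54 to 8.09% in tumour cells and 3.62 to 7.4% in NK cells. Dendritic cells had no gene of 23 past 2-fold in the first comparison, 1 lower of 24 in the second (Cx3cr1, 6.09 CPM against 12.48), 1 higher and 1 lower of 24 in the third (Pdcd1 at 7 UMIs against 3, and Ccr2 at 55.8 against 119 CPM) and none of 24 in the last. Tumour cells had 1 higher (Cx3cr1, 55 UMIs against 10) of 17 in the first, where Irf7 (3 UMIs against 12) and Itga1 were lower, and 0 higher and 2 lower of 16 (Cx3cl1 and Cx3cr1) in the second. In the third, Irf7 was higher (26 UMIs against 3), and 2 of 18 were lower, Ifnar1, a type I interferon receptor subunit (10.4 CPM against 28.8), and Cx3cr1 (8 UMIs against 55). The last had 0 higher and 1 lower of 16 (Itga1). Cx3cl1, the other chemokine made as a membrane protein, stood at 25.7, 12, 15 and 17.9 CPM in tumour cells, and Itga1 at 83.4, 84.3, 25.9 and 24.9 CPM, lower in both KO libraries. NK cells had no gene of 23 higher and 1 lower in the first (Stat2, 3 UMIs against 12), 1 of 23 higher in the second (Cx3cr1, 47 UMIs against 13), 1 of 21 lower in the third (Itgae, 5 UMIs against 9) and 2 of 22 lower in the last (Stat2, 4 UMIs against 12, and Irf7, 9 against 28).

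Neutrophils had 1 of 19 genes higher and 1 lower in the first comparison (Cx3cr1 with 11 UMIs against 5, and Runx3 at 21.1 CPM against 42.8), beside 3.27% of all genes higher and 4.29% lower. In the second, 1 of 20 was higher (Ifng, 8 UMIs against 4), beside 2.8%. In the third and in the last, 5 of 24 were higher, beside 6.13 and 4.7% of all genes. They were the same 5 genes, Dpp4, Tbx21, Eomes, Pdcd1 and Itga1, which T and NK cells express. Each had 9 to 16 UMIs in KO anti-PD-1 and 1 to 7 in the library compared, beside the higher T cell marker sum of KO anti-PD-1 given above. Adam10, the protease that releases Cxcl16, stood at 80.7, 79.5, 85.3 and 62.7 CPM in monocytes and macrophages and at 34.6, 28.0, 36.9 and 25.3 CPM in dendritic cells. Like Cxcl16 itself, Adam10 stayed within 2-fold in every comparison in both classes.

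The genes most like each of the 5 in level were read over 92 points, the 23 classes or sub-clusters with enough cells in each of the 4 libraries, by Pearson's r of log2(CPM + 10). These points share libraries and depth, so r is a description. For Cxcl9 the closest were Batf2 (0.85), Spint1 (0.80), Slamf8 (0.79), Rab3il1 (0.79) and Aif1 (0.78), and for Cxcl10 they were Ly6i (0.77), Gpr84 (0.75), Gbp2 (0.74), Olr1 (0.73) and Tmbim6 (0.71). For Cxcl16 they were Cttnbp2nl (0.88), Anpep (0.87), Rasa4 (0.86) and the MHC class II genes H2-Aa (0.86) and H2-Eb1 (0.85). For Cxcr3 they were Cd28 (0.93), Inpp4b (0.90), Cers4 (0.87), Icos (0.87) and Lockd (0.87), and for Cxcr6 Cd3g (0.91), Trbc2 (0.89), Cd226 (0.88), Inpp4b (0.88) and Gstp3 (0.88). The 2 ligands of Cxcr3 were not among each other's closest genes: r between Cxcl9 and Cxcl10 was 0.50, below the 0.68 between Cxcl9 and Cxcl16, while r between the receptors was 0.84.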

How the data were processed

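Droplet 3′ libraries (10x Genomics v2) from 4 lung samples were read as the deposited matrices of UMI counts per gene and cell, which per the file headers were written by Cell Ranger 3.0.0 and hold no normalization. The submitters' processing notes name Cell Ranger, bcl2fastq and hg19, but all 31053 gene identifiers are mouse Ensembl identifiers and 99.6% are in GENCODE M21, so the build was not settled and positions are those of GRCm38.p6. The barcode list of 6074 entries fitted only the WT IgG matrix, so barcodes shared between libraries could not be counted. No label ties a library to separate animals.

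Cells with under 200 genes (9 to 19 a library), over 10% mitochondrial UMIs (320 to 398) or a Scrublet doublet score over 0.25 (73 to 105) were removed. That score limit was set because the automatic one called 77, 105, 1 and 0 doublets. With scanpy 1.11.5, 2000 variable genes, 30 components and 15 neighbours were used for Leiden clustering at resolution 1 (igraph 0.11.9), without the 5 genes and their pathway. Clusters were named from 32 marker lists, and 727 cells in sub-clusters led by the list of another class were set aside. The largest such group was 252 cells of the neutrophil clusters (78, 33, 110 and 31 by library), led by the Gpnmb and Trem2 macrophage list. Their median depth was 1008.5 UMIs, against 9391 in the Gpnmb and Trem2 macrophages. Whether they were neutrophils was not tested, and the neutrophil values leave them out. Sub-clusters that fitted no list clearly stayed in their class without a name. A check of 50 clusters found 0 led by markers of another class. Sub-clusters led by the list of another class had been set aside before it, so it is no independent check of the names. Naming limits, families and sub-cluster resolution were set after the clusters were seen, and cells were sorted into classes here, so names may differ from the study's.

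CPM were computed from the summed UMIs of each class in a library. Exact Poisson, binomial (Clopper-Pearson) and conditional ratio intervals came from scipy 1.17.1. Fold calls and intervals were run on simulated Poisson counts, the model that the intervals assume. That run checks the code and says nothing of the spread between cells or animals. Alternatives were scaling by edgeR 4.0.16 (TMM) and DESeq2 1.42.0 (median of ratios) factors in R 4.3.3, mitochondrial limits, doublets, resolutions, thinning, the weighting of cells and the filter on UMIs. A further 2 alternatives, equal sub-cluster shares and leaving out 2 T cell sub-clusters, were chosen after seeing the data. The members and lists were chosen with earlier results of these data known. Genes named are the 5 members, for each the 5 genes of highest Pearson correlation with it, and pathway genes past 2-fold in a class where a member was, plus Ifng, Irf1 and Tbx21; some genes that the rule names are not reported here. Adam10 was named after its values were seen. RefSeq held a promoter for 4 of the 5 genes, all but Cxcl16.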

Additional observations from a re-analysis of the deposited data

Results flagged for a closer look

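Cxcl16 in monocytes and macrophages moved in opposite directions with anti-PD-1 in the 2 tumour genotypes: the ratio to IgG was 1.11 (1.04 to 1.19) in WT and 0.853 (0.793 to 0.918) in KO. With 1 library a group, each genotype gives a single ratio, and the difference between the 2 ratios was not tested. With sub-clusters given equal shares in both libraries the ratios were 1.26 and 1.06, both above 1.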

How the results depend on the processing

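No paired analysis was possible because each group holds 1 library, and leaving out a replicate was not possible for the same reason. Of the alternative values for the main ratios and counts that answer a comparison, 228 stayed within the counting interval of the value given or within 1.5 times a count, and 40 did not. Of the alternative values for the other results, 218 stayed, 43 did not and 1 reversed. In what follows, KO/WT means KO over WT under IgG, and WT and KO alone mean anti-PD-1 over IgG in that genotype. For Cxcl9 in monocytes and macrophages, resolution 2 gave 0.393 (KO/WT), 3.29 (WT) and 2.71 (KO), the 5% mitochondrial limit 0.743 (KO/WT) and 3.56 (WT), members kept for clustering 0.726 (KO/WT) and 3.50 (WT), no doublet removal 3.43 (WT) and 0.317 (KO over WT under anti-PD-1), thinning to 500 UMIs 2.15 (WT) and 0.474 (KO over WT under anti-PD-1), equal weight per cell 2.25 (WT) and equal sub-cluster shares 3.30 (WT). For Cxcl10 there, resolution 2 gave 0.334 (KO/WT), 2.59 (KO) and 0.498 (KO over WT under anti-PD-1), thinning 0.734 (KO/WT), 2.20 (WT), 1.36 (KO) and 0.453 (KO over WT under anti-PD-1), equal weight per cell 1.53 (WT), and equal shares 0.769 (KO/WT) and 2.14 (WT). For Cxcl16 there, thinning gave 0.929 (KO/WT) and 0.99 (WT), equal weight per cell 1.01 (WT) and 0.927 (KO over WT under anti-PD-1), and equal shares 1.26 (WT) and 1.06 (KO). For Cxcr3 in T cells thinning gave 0.492 (KO/WT), 1.45 (WT) and 3.53 (KO), and equal shares 0.916 (WT) and 1.63 (KO). For Cxcr6 in T cells thinning gave 2.52 (WT) and 0.598 (KO over WT under anti-PD-1), equal weight per cell 0.597 (KO/WT), and equal shares 0.889 (KO/WT), 1.37 (WT) and 1.20 (KO). Thinning reversed 1 further value, Cxcl9 in tumour cells for KO over WT under anti-PD-1, to 1.64 (0.0855 to 96.8). The cause was not tested for any of these. Resolution 0.5 gave no tumour values, since those cells joined an unnamed cluster.

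TMM scaling moved the median log2 ratio of all genes by -0.10 in T cells for anti-PD-1 in WT and by 0.12 in tumour cells for anti-PD-1 in KO. It turned the 294 higher and 232 lower genes of the former into 240 and 302, and the 537 and 797 of the latter into 667 and 577. For KO/WT in T cells it turned 342 and 361 into 263 and 418, and for anti-PD-1 in WT dendritic cells 378 and 258 into 304 and 313, while median-of-ratios scaling turned 321 and 471 into 396 and 363 for anti-PD-1 in KO dendritic cells. With no filter on UMIs, all 20 counts of genes past 2-fold, 526 to 1623, became 3357 to 4512. Depth limits the receptors in KO IgG most, where T cells held 86 UMIs of Cxcr3 and 207 of Cxcr6.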

Other observations

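Fibroblast-like cells, 6 to 10 in each library, had 135 Cxcl10 UMIs in WT IgG, of which 99.3% were in 1 cell, and 122, 0 and 9 in the other libraries in the order used above. Their Cxcl16 stood at 146, 171, 82.5 and 160.1 CPM, but these cells were too few for a ratio. Plasma cells had 19 Cxcl9 UMIs in each of the 2 WT libraries, in both cases all in 1 cell, and 1 and 2 in the KO libraries.

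Alveolar macrophages had no Cxcr3 UMI in any library. In neutrophil sub-cluster 3, led by Il23a and Tnf, Cxcl10 stood at 331, 379, 89.3 and 334 CPM, so KO IgG was its only low library, and KO anti-PD-1 over KO IgG was 3.74 (2.24 to 6.36). In sub-cluster 4, led by Adamdec1 and Siglecf, it stood at 77.4, 106, 47.1 and 40.7 CPM.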
